A study of Mus musculus with 2 samples.

Results

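The unfolded protein response and the ATF4 stress response were examined here through 33 genes, listed by symbol, in mesenteric arteries kept in 5 mM K+ or depolarized with 60 mM K+. All 33 symbols were matched to 1 row each among the 55573 listed genes, and 32 of them had at least 10 reads over both libraries together. The arteries, the resistance vessels that feed the intestine, came from wild type C57BL/6 mice 10 weeks old, and both groups carry 60 min as the time in solution. Each condition had 1 RNA-seq library, and each library was pooled from the arteries of 2 mice, so the spread between animals is unknown and the conditions are compared without p-values. By the study's methods all solutions held tetrodotoxin to silence nerves, and control tissue was cut from the distal side of ligated arteries before the rest was perfused with 60 mM K+, whereas its main text describes perfusion for the same time in both groups. K+, arterial segment and handling time therefore cannot be told apart in these libraries.

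Proteins that enter the endoplasmic reticulum (ER) are folded there by chaperones and oxidized by disulfide isomerases, and 3 sensors in the ER membrane respond when unfolded proteins build up. PERK, encoded by Eif2ak3, phosphorylates the initiation factor eIF2α, which slows translation in general but favors translation of ATF4, a transcription factor for amino acid and stress genes. IRE1, encoded by Ern1, cuts the mRNA of Xbp1 so that an active transcription factor is made from it, and ATF6 is released by proteolysis to act in the nucleus on chaperone genes. ATF4 is also reached from other eIF2α kinases, and in smooth muscle the ER is the sarcoplasmic reticulum, the Ca2+ store of the cell. Many of the target genes answer to more than 1 branch, so the division below is a textbook one: 10 genes were placed with PERK/ATF4, 8 with IRE1/XBP1 and 15 with ATF6.

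Promoter sequences are shown first because the known elements of these branches lie in them and can be set beside the reads of each gene. RefSeq promoters (GRCm38.p6, 250 bases before to 50 after the start) were available for 30 of the 33 members, 31 sequences in all, and Atf6, Hyou1 and Manf had none in the table used. The 250 bases before the start are printed for 5 of them, 5′ to 3′ on the strand of the gene, and capitals mark exact matches to an element on either strand. The ER stress response element (ERSE), at which ATF6 acts together with NF-Y, was searched as CCAAT and CCACG with 9 bases between them, and only these outer parts are in capitals. In ERSE-II the outer parts are ATTGG and CCACG with 1 base between. The C/EBP-ATF element, at which ATF4 acts, was searched as TGATGNAA.
Hspa5 promoter, chr2:34771840-34772089, plus strand: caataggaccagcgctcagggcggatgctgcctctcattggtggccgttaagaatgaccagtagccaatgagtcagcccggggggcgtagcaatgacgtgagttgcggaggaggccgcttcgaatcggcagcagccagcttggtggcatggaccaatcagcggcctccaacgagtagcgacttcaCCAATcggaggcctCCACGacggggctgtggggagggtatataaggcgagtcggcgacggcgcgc
Hsp90b1 promoter, chr10:86705445-86705694, minus strand: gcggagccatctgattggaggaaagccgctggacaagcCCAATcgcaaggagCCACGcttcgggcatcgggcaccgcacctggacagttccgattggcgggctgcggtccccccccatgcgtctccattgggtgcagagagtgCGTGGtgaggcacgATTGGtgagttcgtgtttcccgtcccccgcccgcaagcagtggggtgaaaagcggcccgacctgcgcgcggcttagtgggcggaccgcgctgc
Herpud1 promoter, chr8:94386179-94386428, plus strand: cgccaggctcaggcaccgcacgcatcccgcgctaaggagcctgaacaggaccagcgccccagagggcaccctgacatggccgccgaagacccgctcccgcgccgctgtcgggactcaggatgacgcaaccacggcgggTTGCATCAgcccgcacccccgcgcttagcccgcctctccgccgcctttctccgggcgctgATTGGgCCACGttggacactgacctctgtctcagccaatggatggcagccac
Chac1 promoter, chr2:119350992-119351241, plus strand: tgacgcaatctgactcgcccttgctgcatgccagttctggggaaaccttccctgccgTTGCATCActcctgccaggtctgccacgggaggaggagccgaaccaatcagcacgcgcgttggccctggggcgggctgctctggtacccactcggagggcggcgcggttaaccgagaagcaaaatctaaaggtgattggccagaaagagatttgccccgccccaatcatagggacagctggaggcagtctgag
Asns promoter, chr6:7693210-7693459, minus strand: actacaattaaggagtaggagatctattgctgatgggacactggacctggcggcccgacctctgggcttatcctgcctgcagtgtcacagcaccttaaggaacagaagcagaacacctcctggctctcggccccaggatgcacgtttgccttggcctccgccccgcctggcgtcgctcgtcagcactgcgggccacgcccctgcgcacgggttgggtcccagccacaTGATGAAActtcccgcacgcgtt
Hspa5 encodes BiP, the main ER chaperone of the HSP70 family. Its match to ERSE ran from -65 to -47 relative to the start. Hsp90b1, the ER member of the HSP90 family, held 2 matches on opposite strands. Herpud1, a membrane protein of ER-associated degradation, held ERSE-II from -52 to -42 and a C/EBP-ATF element from -112 to -105. The elements of Chac1, a glutathione-degrading enzyme, and Asns, asparagine synthetase, lay from -193 to -186 and from -23 to -16.

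ERSE was found in 9 of the 31 member promoters (29.0%), compared with 39 of all 32851 promoters (0.119%), and members made up 23.1% of the promoters that held it. The 9 genes were Hspa5, Hsp90b1, Calr, Canx, Pdia6, Creld2, Dnajc3, Syvn1 and Derl3. ERSE-II was found in Herpud1 and Dnajb11 and in 0.0365% of all promoters. The C/EBP-ATF element was found in 4 member promoters (12.9%), those of Chac1, Asns, Trib3 and Herpud1, and in 3.97% of all promoters. The XBP1 element TGACGTGG was found in 0 of 31 member promoters and in 0.676% of all promoters. The full cAMP response element TGACGTCA was found in 1 member, Ppp1r15a, and in 1.79% of all promoters. No match of one element overlapped a match of another in these promoters. A match describes letters in this window only.

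Read counts were compared after scaling by the trimmed mean of M-values (TMM), and log2(fold-change) is 60 mM K+ over 5 mM K+ throughout. A difference counts as past the fold where log2(fold-change) was above 1 or below -1 and the gene had at least 10 reads. Brackets give the 95% Clopper-Pearson interval, taken on how the reads of a gene were divided between the libraries and written as log2(fold-change); it covers counting error only. FPKM is the deposited level per gene length and is used to compare levels between genes.

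Of the 32 members with at least 10 reads, 5 were higher in 60 mM K+ past the fold (15.6%) and 0 were lower, compared with 5.54% and 5.86% of all 14829 genes with that many reads. The 5 were Hspa5, Chac1, Asns, Ddit3 and Atf4. Counting intervals lay wholly above 0 for 21 members (65.6%) and wholly below 0 for 5 (15.6%), where 25.0% and 20.3% of all genes did. Because narrow intervals come with many reads, the same shares were taken among genes with at least 500 reads: 18 of 26 members (69.2%) lay above 0 against 41.4% of 6549 genes, 4 (15.4%) lay below 0 against 21.4%, and 3 (11.5%) were past the fold upward against 3.24%. A random-sampling test rebuilt from the formula of DEGSeq, with the thresholds of the study (q-value under 0.005 and the same fold), took the same 5 of 33 members upward and 0 downward, where it took 2.11% and 1.10% of the 21374 genes with a read. It compares these libraries and not the conditions, and its calls are not the gene list of the study, whose program was not run here. The rebuilt test took 452 genes upward, more than the study lists. Of the 5 members, the study lists Hspa5 and Atf4 but not Chac1, Asns or Ddit3.

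Scaling bears on the small differences. With TMM the median over all 14829 genes was -0.0047. It was 0.08 over the 6549 genes with at least 500 reads, a depth that 26 members had. Scaling by total counts lowered every value by 0.21, and these medians to -0.21 and -0.13. With total counts the same 5 members stayed past the fold, 16 intervals lay above 0 in place of 21, and 4 members with values near 0 (Canx, Hyou1, Dnajb11 and Edem1) turned from positive to negative. Summed over all 33 members, 51959 reads (0.496% of the library) were counted in 5 mM K+ and 74012 (0.656%) in 60 mM K+. Hspa5 alone accounted for 52.2% of that gain in reads.

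**Figure D1:**
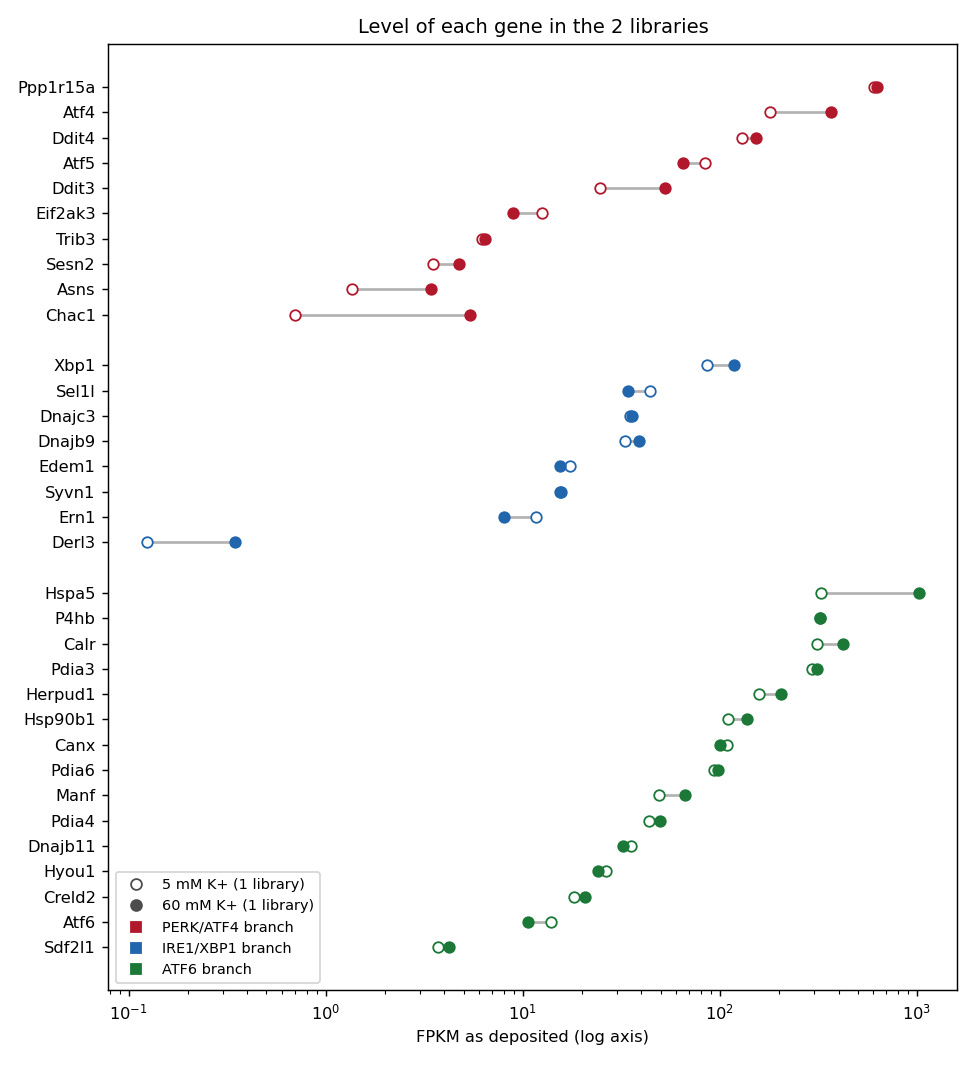
Deposited FPKM of each gene (log axis) in the 5 mM K+ library (open circles) and the 60 mM K+ library (filled circles), ordered within each branch by the level in 5 mM K+. Hspa5, at 327 and 1022 FPKM, moved from the second to the first place among the 33 genes, and Derl3 stayed last.

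The plot of levels by library shows a range from 0.124 FPKM for Derl3 in 5 mM K+ to 1022 FPKM for Hspa5 in 60 mM K+. In 5 mM K+ the highest levels were those of Ppp1r15a at 602 FPKM, Hspa5 at 327, P4hb at 321 and Calr at 311. In 60 mM K+ Hspa5 was first at 1022 FPKM, ahead of Ppp1r15a at 625, Calr at 422 and Atf4 at 367. The enzymes that ATF4 is known to induce lay at the other end: Asns had 1.36 and 3.42 FPKM and Chac1 0.699 and 5.41.

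In the PERK/ATF4 branch, the transcription factors ATF4 and CHOP and 2 enzymes among their known targets were higher in 60 mM K+, while the sensor was not. Atf4 (mm9 chromosome 15, 80085614 to 80087970) had 2764 reads in 5 mM K+ and 6074 in 60 mM K+. This is a 2.36-fold difference, or 1.24 [1.17 to 1.30] on the log2 scale. ATF4 is controlled largely through translation, which read counts do not show. Ddit3, which encodes CHOP, a transcription factor linked to cell death under prolonged stress, had 211 and 487 reads, a log2(fold-change) of 1.31 [1.07 to 1.55]. Ddit3 lies on chromosome 10 from 126727830 to 126733344 and overlaps Mars on the opposite strand. The library kit is not stated to mark strand, so reads of this pair cannot be told apart where they overlap; Mars itself had 457 and 440 reads.

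Chac1 (chromosome 2, 119176965 to 119180117) showed the largest difference of the 33 genes in log2(fold-change) among those with at least 10 reads. Its 12 reads in 5 mM K+ stood against 100 in 60 mM K+, a log2(fold-change) of 3.16 [2.29 to 4.16]. Asns (chromosome 6, 7625169 to 7643254) had 14 and 38 reads, and its interval was wide, 0.63 to 2.54 around 1.54. Both genes carry the C/EBP-ATF element printed above. Trib3, a pseudokinase, also carries one, but after the start, at bases 15 to 22, whereas those of Chac1 and Asns lie before it. Trib3 had 69 and 77 reads, or 0.26 [-0.23 to 0.75], so that it differed by less than the counting error. The intervals of Chac1 and Trib3 did not overlap.

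The other genes of this branch differed less. Sesn2, a stress-induced inhibitor of mTORC1 signaling, had 127 and 187 reads, a log2(fold-change) of 0.66 [0.33 to 1.00]. Ddit4, which encodes the mTORC1 inhibitor REDD1, had 2378 and 3020 reads, with 0.45 [0.37 to 0.52]. Ppp1r15a encodes GADD34, the phosphatase subunit that reverses eIF2α phosphorylation. It had the most reads of all members in 5 mM K+, 11631, and 13012 in 60 mM K+, a log2(fold-change) of 0.26 [0.23 to 0.30], or 0.05 with total counts. Thus the highest level in the branch went with one of its smaller differences. Eif2ak3, the sensor PERK, was lower, with 248 and 190 reads and -0.28 [-0.56 to -0.0045], an interval that ended close to 0. Atf5, a bZIP factor that is a target and relative of ATF4, had 1215 and 1008 reads and -0.17 [-0.29 to -0.05]; it shares its place with Nup62 and Il4i1 on the other strand. Over the 10 genes the median log2(fold-change) was 0.55.

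**Figure D2:**
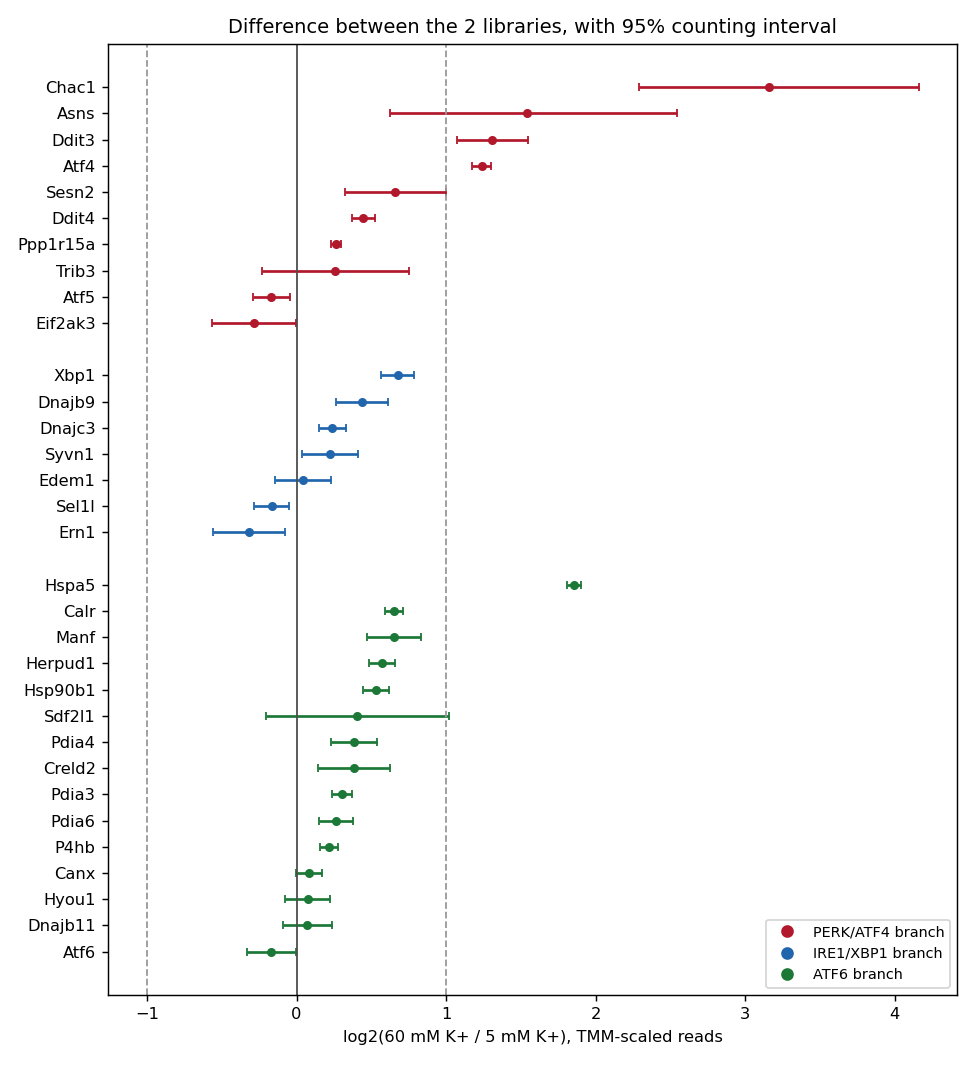
Points are log2(fold-change), 60 mM K+ over 5 mM K+ on TMM-scaled reads, for the 32 members that had 10 or more reads, with 95% counting intervals as bars and dashed lines at -1 and 1. Points of 5 genes lie to the right of 1, and the sensor genes Eif2ak3, Ern1 and Atf6 lie to the left of 0.

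In the IRE1/XBP1 branch no gene was past the fold, and the transcription factor and the sensor lay on opposite sides of 0. Xbp1 (chromosome 11, 5420662 to 5425896) had 1146 reads in 5 mM K+ and 1706 in 60 mM K+, a log2(fold-change) of 0.68 [0.57 to 0.78]. Ern1, the sensor, had 330 and 247 reads, with -0.32 [-0.56 to -0.07]. Activity of this branch is set by splicing: IRE1 removes 26 bases from the Xbp1 mRNA, which lie in exon 4 of 5 at chr11:5424282-5424307 (mm9, plus strand). The piece was located in the transcript by its paired loops, CNGCAGC, spaced 26 bases apart, and stands in capitals.
Xbp1, removed piece and 16 bases on either side: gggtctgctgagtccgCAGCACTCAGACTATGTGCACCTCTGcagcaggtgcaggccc
Read counts per gene do not tell the spliced from the unspliced form, so these files give the total Xbp1 mRNA only.

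Targets of XBP1 differed little. Dnajb9, which encodes the BiP co-chaperone ERdj4 and is among the genes most dependent on XBP1, had 494 and 624 reads (0.44 [0.27 to 0.61]). Dnajc3, the co-chaperone p58IPK, had 1890 and 2081 reads (0.24 [0.15 to 0.33]). Syvn1, the ubiquitin ligase HRD1 of ER-associated degradation, had 459 and 499 reads (0.22 [0.04 to 0.41]). All 3 intervals lay above 0 with TMM, but with total counts Dnajc3 was at 0.03 and Syvn1 at 0.01. Sel1l, the partner of HRD1, lay on the other side, with 1281 and 1064 reads and -0.17 [-0.28 to -0.05]. Edem1, which helps to hand misfolded glycoproteins to degradation, had 490 and 471 reads and 0.04 [-0.14 to 0.23]. Derl3, a degradation channel protein known from secretory cells, had 1 and 3 reads, both at or under the floor of 3 counts, and no fold is given for it. The median over the 7 genes with at least 10 reads was 0.22.

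In the ATF6 branch, Hspa5 stood far above the other genes, none of which was higher by more than 1.57-fold. Hspa5 (chromosome 2, 34627490 to 34632051) had 4852 reads in 5 mM K+ and 16362 in 60 mM K+, a 3.62-fold difference and a log2(fold-change) of 1.86 [1.81 to 1.90]. Its interval did not overlap that of any other gene of the branch. Next came the chaperone and Ca2+ buffer gene Calr, with 3829 and 5602 reads (0.65 [0.59 to 0.71]). Manf, a secreted neurotrophic and ER protein, had 431 and 630 reads and the same log2(fold-change) to 2 decimals, 0.65 [0.47 to 0.83]. Herpud1 followed with 1847 and 2562 reads (0.57 [0.49 to 0.66]) and Hsp90b1 with 1867 and 2510 (0.53 [0.44 to 0.62]).

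The disulfide isomerases of the branch formed a narrower group. Pdia4 had 631 and 769 reads with 0.39 [0.23 to 0.54], Pdia3 had 3548 and 4084 reads with 0.30 [0.24 to 0.37], and Pdia6 had 1144 and 1280 with 0.26 [0.15 to 0.38]. P4hb, the founding isomerase PDI and a subunit of prolyl 4-hydroxylase in collagen synthesis, had 4534 and 4913 reads with 0.22 [0.16 to 0.28], which became 0.01 with total counts. Creld2 had 261 and 317 reads (0.38 [0.14 to 0.62]). For 4 genes the interval held 0: Canx at 0.08, the BiP exchange factor Hyou1 at 0.07, the co-chaperone Dnajb11 at 0.07, and Sdf2l1 at 0.40 with only 43 and 53 reads. Atf6 itself was lower, with 676 and 561 reads and -0.17 [-0.33 to -0.0040]. The median over the 15 genes was 0.38, and 0.34 without Hspa5.

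Taken by role and not by branch, all 3 sensor genes (Eif2ak3, Ern1 and Atf6) had intervals below 0, where 20.3% of all genes did. Their upper ends were -0.0045, -0.07 and -0.0040. With total counts they were at -0.49, -0.53 and -0.38, but that scaling lowers every gene and could only move them further down. Among 16 further sensors and regulators, 7 intervals lay above 0 and 3 below. Of all genes with at least 10 reads, 25.0% lay above and 20.3% below. The shares were 41.4% and 21.4% among genes with at least 500 reads, a depth that 11 of the 16 had. Of the 16, Atf6b had an interval above 0, at 0.21 [0.05 to 0.38], or 0.0033 with total counts. The transcription factor genes Atf4, Ddit3 and Xbp1 had intervals above 0 under TMM and stayed positive with total counts, at 1.03, 1.10 and 0.47, but the transcription factor genes did not all lie on that side, since Atf5, like Atf6, had an interval below 0 and was at -0.38 with total counts. Among the 8 genes with an ERSE and at least 10 reads, log2(fold-change) ran from 0.08 for Canx to 1.86 for Hspa5.

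**Figure D3:**
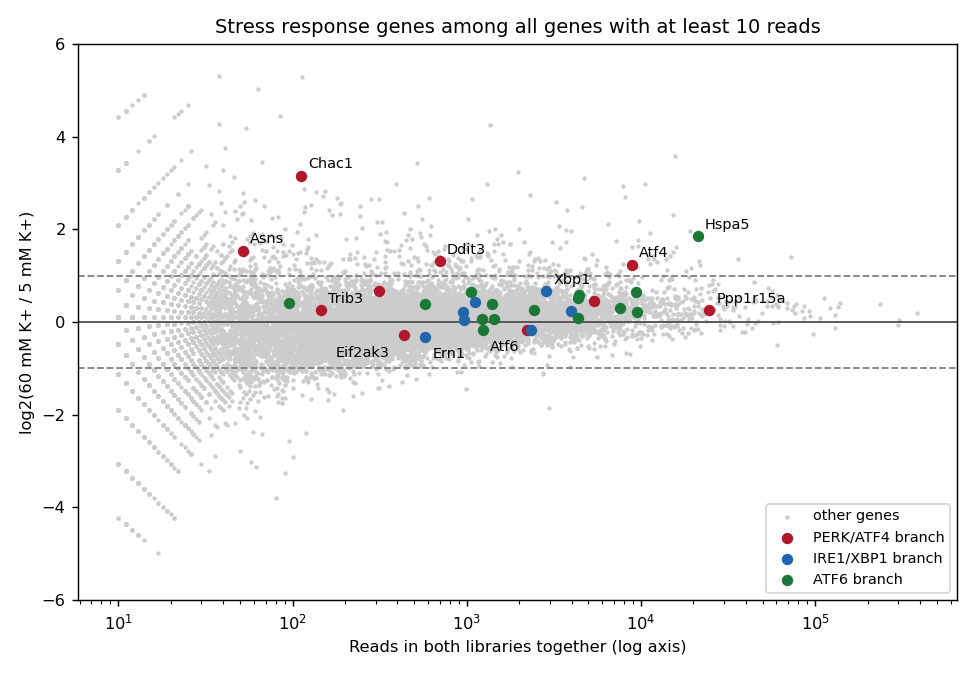
log2(fold-change) against the number of reads in both libraries together (log axis) for the 14829 genes with at least 10 reads; gray points are other genes, colored points the 32 members, and 1 gene lies beyond the vertical axis. Hspa5, with 21214 reads, and Atf4 lie above the dashed line at 1 in a part of the plot where few genes do, whereas Asns and Chac1 lie among genes of few reads, where the scatter is wide.

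The elements were then followed beyond the members, across 9534 genes with a promoter, a matched symbol and at least 10 reads, whose median log2(fold-change) was 0.01 and of which 4.87% were past the fold upward. With members left out, the 8 genes with ERSE had a median of -0.22 and 0 were past the fold. The 4 genes with ERSE-II had a median of 0.20 and 0 were past the fold, but all 4 intervals lay above 0 with TMM. Among the 9534 genes, 27.2% of intervals did. The intervals of the 4 depend on the scaling, since total counts lower every value by 0.21. Rbm39 (0.207), Krtcap2 (0.196) and Nucb1 (0.117) then fall below 0, and only the interval of Rcl1 (0.68) stays above 0. The 266 genes with the C/EBP-ATF element had a median of 0.06 and 7.52% were past the fold, the 102 with the XBP1 element had 0.01 and 7.84%, and the 336 with the full cAMP response element had 0.09 and 4.17%. These medians are descriptions; the element alone was not tested as a predictor.

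Other genes of the same pathways, from lists that hold no member, had medians nearer to 0 than the branches with TMM, whereas with total counts the medians of the 6 lists that follow lay between -0.16 and -0.04 and that of IRE1/XBP1 at 0.01. Of 14 further eIF2α kinase and integrated stress response genes with at least 10 reads, 3 were past the fold upward and 0 downward, with a median log2(fold-change) of 0.17. Of all genes with that many reads, 5.54% were past the fold upward and 5.86% downward. Slc7a5, the light chain of a leucine transporter, had 94 and 256 reads (1.55 [1.20 to 1.90]). Gdf15, a stress-induced hormone, had 183 and 473 reads (1.47 [1.22 to 1.73]), and Cth, an enzyme of cysteine synthesis, had 1 and 10 reads with an interval from 0.61 to 8.86. Cth reached 10 reads only through the 60 mM K+ library, and the list held 2 genes past the fold with at least 50 reads and 1 with at least 500. The heavy chain Slc3a2 lay just inside the fold at 0.92.

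Among 20 genes of amino acid synthesis and tRNA charging that ATF4 is known to induce, 1 was past the fold upward and 0 downward. The count upward was near the share of all genes, 5.54%, and 5.86% of all genes were past the fold downward. The lowest of the 20 was Aldh1l2, a mitochondrial folate enzyme, at -0.84 (-1.05 with total counts). The gene past the fold was Eprs, the glutamyl-prolyl-tRNA synthetase, with 2476 and 8730 reads (1.92 [1.85 to 1.98]). The list as a whole had a median of 0.14, but log2 of the ratio of its summed reads was 0.74, compared with 0.61 for the members. Single genes weighed on both sums. Eprs gave 2476 of the 12141 reads of its list in 5 mM K+ and 8730 of 18923 in 60 mM K+. Without Hspa5 the value of the members was 0.39. The other synthetases lay on both sides of 0, from -0.40 [-0.61 to -0.18] for Iars to 0.70 for Cars. Nearest to Eprs in log2(fold-change) among the members was Hspa5.

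The genes of ER import, folding and degradation outside the member list all stayed inside the fold. Of 21 genes of ER translocation and early secretion known as XBP1 targets, 0 were past the fold in either direction (median 0.05, from -0.47 to 0.37). The same held for 17 further genes of ER-associated degradation (median 0.15, from -0.32 to 0.64) and for 21 further folding enzymes and chaperones (median 0.07, from -0.38 to 0.78). In the order given, 9, 9 and 7 intervals lay above 0, and 3, 2 and 1 lay below. Of all genes, 25.0% lay above and 20.3% below, and 41.4% and 21.4% with at least 500 reads. The highest degradation gene, Ube2j1 at 0.64 [0.52 to 0.76], lay near Calr and Manf of the ATF6 branch. Of 16 further sensors and regulators, 1 was past the fold upward, near the share of all genes, 5.54%, and the median was 0.07. It was the proapoptotic gene Bcl2l11, with 94 and 189 reads (1.11 [0.74 to 1.48], or 0.90 with total counts).

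The cytosolic heat shock response, which deals with unfolded proteins outside the ER, was set beside these genes as the part of the data closest in kind. Its list also holds the mitochondrial chaperonin genes Hspd1, at 0.41, and Hspe1, which was past the fold at 1.46. Of the 13 genes in the list, 7 were past the fold upward (6 with total counts) and 0 downward, with a median log2(fold-change) of 1.19, compared with 5 of 32 and a median of 0.34 for the members. Of all genes, 5.54% were past the fold upward and 5.86% downward. The study lists all 7 from these same libraries, and the list was chosen with earlier results known, so this count is only a description. Hspa1b was the highest of the 13 at 3.57, and the relation of its reads to those of the near-identical Hspa1a, at 2.98, is uncertain. Hspa8, the constitutive HSP70 of the cytosol, was at 0.44 [0.41 to 0.48], so that among these HSP70 genes Hspa5 of the ER lay between the constitutive and the inducible ones.

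**Figure D4:**
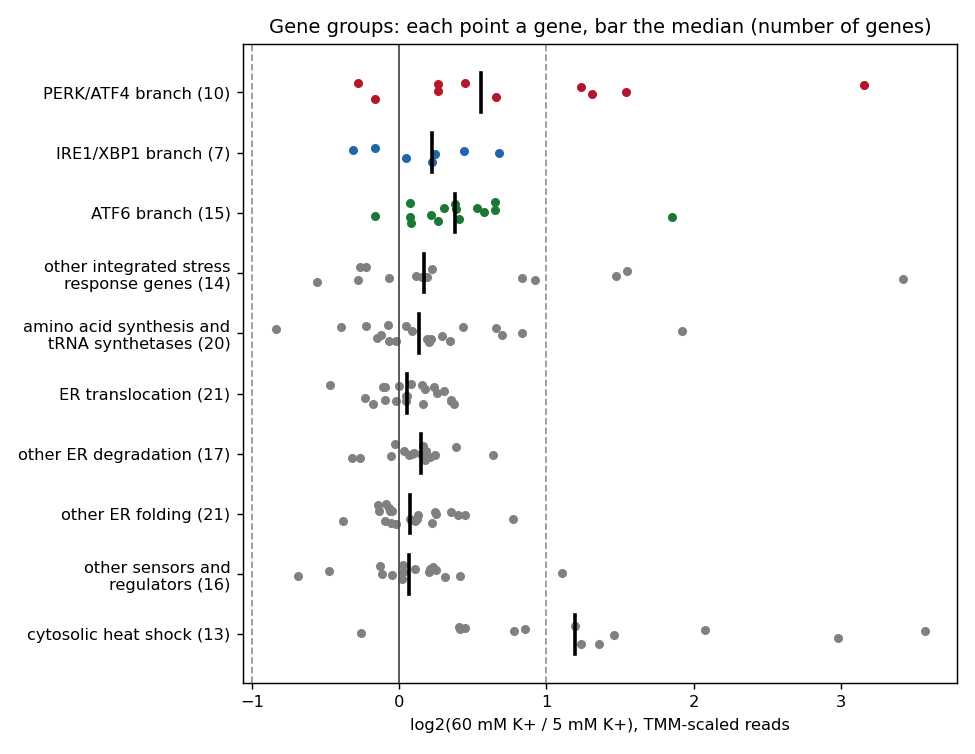
log2(fold-change) of each gene with at least 10 reads, by group, with the median as a black bar and the number of genes in brackets; vertical position within a group has no meaning. The medians of the branches are 0.55, 0.22 and 0.38, those of the other ER and integrated stress response groups lie from 0.05 to 0.17, and that of the cytosolic heat shock response is 1.19.

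The tissue and its other cells were checked by marker genes. The 10480918 and 11289598 reads of the libraries were led by smooth muscle genes: Acta2 had 187183 and 199779 reads. In TMM-scaled reads, log2 of the ratio of summed marker reads was 0.13 for smooth muscle (8 genes), 0.45 for endothelium (8), -0.26 for fibroblasts (8), -0.16 for macrophages (9), -0.41 for adipocytes (8), -0.09 for nerve and Schwann cells (8) and -0.70 for red blood cells (3). Pecam1 gave 19497 of the 37752 endothelial reads in 5 mM K+ and 25719 of 47943 in 60 mM K+. Of the endothelial intervals 7 lay above 0, whereas Kdr, with 168 and 73 reads, was past the fold downward at -1.10. Fabp4, at -0.06, gave 1060 of the 2158 adipocyte reads in 5 mM K+ and 951 of 1509 in 60 mM K+. The median of the adipocyte list was -0.90, with 3 genes past the fold downward (Plin1, Cfd and Adipoq) and 1 upward. The latter was Lep, with 1 read in 5 mM K+ and 9 in 60 mM K+ (3.27 [0.42 to 8.73]). Markers of pancreatic acinar cells, which are rich in ER chaperones, summed to 140 reads in 5 mM K+ and 515 in 60 mM K+ over 12 genes. Of these, 8 were past the fold upward, compared with 5.54% of all genes, and 2 (Prss1 and Amy2a5) were at 0 in both libraries. Among the 8, only Ctrb1 (21 and 129 reads) had at least 10 reads in 5 mM K+. The others reached 10 reads only through the 60 mM K+ library, and the interval of Cel held 0. The part of acinar and other cells in the members' values was not tested. Of 8 B and plasma cell markers, 1, Sdc1, had at least 10 reads; the 6 T cell markers had 9 and 2 reads in all, and the 6 mesothelial markers had 23 and 24. In arteries taken whole, more cells of a type and more RNA per cell cannot be told apart.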

How the data were processed

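RNA was measured in 2 libraries of mouse mesenteric artery, 1 per condition. According to the methods, reads were aligned to mm9 with TopHat2; the submitters' processing notes name TopHat2 2.0.12, HTSeq 0.6.1 and edgeR 3.0.8, and list mm8 beside mm9. The annotation is not given in the sources used here. The deposited read counts per gene were not normalized, and the authors also deposited FPKM values, whose ratio between libraries was that of total-count scaled reads for every gene checked.

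TMM factors were computed with edgeR 4.0.16 (R 4.3.3), giving effective sizes of 11266853 (5 mM K+) and 10502077 (60 mM K+) reads, at which a floor of 3 counts is 0.266 and 0.286 CPM. A count of 0 beside reads in the other library was replaced by 0.5. Without replicates the quasi-likelihood test of edgeR was not possible. Intervals were computed with scipy 1.17.1 and were tested on simulated data. Positions of genes are on mm9 (GENCODE vM1), in which 9 members overlap a gene on the opposite strand, and promoters on GRCm38.p6 (RefSeq). Protein sequences were not used here, so the planned look at C-terminal retrieval signals was left out. The members and lists were chosen with earlier results of these data known, Atf4, Hspa5, Eprs and some heat shock genes having been listed by the study from the same libraries. Every member is described. From other lists, genes past the fold are named, at most 4 a list. Further genes named there (Slc3a2, Cars, Iars, Aldh1l2, Mars, Hspa8, Hspd1, Atf6b, Ube2j1) were chosen after their values were seen. The limit of 500 reads was also chosen after seeing the data. The random-sampling test was rebuilt from its formula, without the authors' program or further settings, so its calls do not stand for theirs. Alternatives were 3 other scalings (DESeq2 1.42.0 for median-of-ratios), other minimum counts, FPKM with pseudocounts of 0.1 and 1, edgeR's exact test with an assumed spread, other fold limits and another branch assignment. Figures were drawn with matplotlib 3.10.9 in Python 3.11.15.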

Additional observations from a re-analysis of the deposited data

How the results depend on the processing

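No paired analysis was possible because neither condition had replicates, and no alternative measures how far animals differ. The count of members past the fold upward, 5, depended most on that spread: edgeR's exact test (q-value under 0.05 and the same fold) took 5 members when the biological coefficient of variation was set to 0.1, 2 (Chac1 and Hspa5) with 0.2 and 0 with 0.4, since the setting adds variation. It was 3 with at least 500 reads, which leaves out Asns and Chac1 by construction, 4 (without Asns) with the fold applied to the interval end nearest 0 and with log2(FPKM + 1), and 9 with a log2(fold-change) limit of 0.58. The count downward was 0 in every alternative.

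Total-count scaling lowered the medians by its constant shift: PERK/ATF4 to 0.34, IRE1/XBP1 to 0.0133, ATF6 to 0.17, other integrated stress response genes to -0.0385, amino acid and tRNA genes to -0.0732, ER translocation to -0.16, other degradation to -0.0635, other folding to -0.14, other sensors to -0.14 and heat shock to 0.98. So the medians of these other ER and ATF4 groups turned negative, while those of the 3 branches stayed positive. With log2(FPKM + 0.1) the PERK/ATF4, IRE1/XBP1 and ATF6 medians were 0.34, 0.0132 and 0.17, and with log2(FPKM + 1) they were 0.30, 0.0125 and 0.16. ERSE-II was in 1 member promoter when bases after the start were left out. Another 92 values kept within the counting error or within 1.5 times the count. Among them was the C/EBP-ATF element, found in 3 member promoters, without Trib3, when bases after the start were left out. Of single members, 23 of 32 moved beyond their counting interval with total counts. Of those past the fold, 0 changed direction in any alternative, but neither a shift of 0.21 nor a pseudocount could have turned them. The PERK/ATF4 and ATF6 medians were 0.45 and 0.34 without Atf4 and without Hspa5. Depth limits Asns, Chac1, Trib3, Sdf2l1 and Derl3, the 5 members with the fewest reads.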
